A study of Mus musculus with 6 samples.

Results

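The cytosolic ribosomal protein genes encode the protein part of the ribosome that translates nuclear messages. They were taken by symbol: Rpsa, Rplp0, Rplp1, Rplp2 and the symbols of Rps or Rpl followed by a number and at most a short suffix, with the ribosomal S6 kinases and the symbols marked as pseudogenes left out. This gave 84 genes of the 16871 listed in the files, 33 of the small and 51 of the large ribosomal subunit. The series measured messenger RNA by sequencing in macrophages grown from the marrow of C57BL/6 mice aged 8 weeks, kept in culture for 7 days and treated at its end with oxLDL, oxidised low-density lipoprotein, the form of the particle that fills the foam cells of arterial plaques. The DKO group (3 libraries) carried knockouts of both Aldh2, which encodes mitochondrial aldehyde dehydrogenase, and the LDL receptor. The LKO group (3 libraries) carried the LDL receptor knockout alone and was the control. Both groups therefore lacked the LDL receptor and both received oxLDL, so neither shows the effect of either. The labels do not say that libraries of a group came from separate animals or cultures, and p-values thus reflect only how far these libraries differ from each other, which may be technical.

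Each ribosome holds a single copy of nearly every ribosomal protein, so cells make these proteins in matched amounts from genes scattered over the genome. Their messages are short, abundant and mostly begin with a C followed by a run of pyrimidines, the terminal oligopyrimidine (TOP) motif, through which the kinase complex mTORC1 controls their translation. Ribosomal protein synthesis is high in growing cells, and some of the proteins, Rpl5 and Rpl11 among them, bind the p53 inhibitor Mdm2 when ribosome assembly is disturbed.

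Libraries held between 10936563 and 10987584 expected counts in DKO and between 10760625 and 10930139 in LKO. Aldh2 checked the labels: it had 7.00, 7.06 and 7.34 FPKM (fragments per kilobase of transcript, scaled to library size) in DKO libraries 1 to 3, against 249, 239 and 236 FPKM in LKO libraries 1 to 3, a log2 fold change of -5.01 ± 0.06. Of 11809 genes tested, 813 were lower and 876 higher in DKO at an adjusted p under 0.05 (edgeR's quasi-likelihood test, Benjamini-Hochberg adjustment), 14.3% in all. The macrophage markers Csf1r, Adgre1 and Lyz2, which encode the CSF1 receptor, F4/80 and lysozyme, were present in every library.

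Promoters of 63 of the 84 genes could be matched in the RefSeq promoter table, each spanning 250 bases before to 50 bases after an annotated transcription start. A C at the annotated start followed by 4 bases that are each C or T, the shape of a TOP motif, was found in 13 of the 63 genes (20.6%) and in 813 of the 27025 genes of the table (3.01%). It was present in 8 of the 42 matched genes that were lower in DKO and in 5 of the 18 that did not pass the test. The search allowed no shift from the annotated start, so a run beginning some bases away was not counted. The windows shown run from 30 bases before to 20 bases after the start, on the strand of the gene, with the run of pyrimidines from the start in capitals. All come from the 13 genes chosen for holding the run, and they show its form in genes that were called and in genes that were not. Their likeness follows from that choice. Coordinates are those of RefSeq on GRCm38.p6, a later build than mm8, which the submitters' processing notes name. In the order listed, they lie at chr4:86857348-86857397 (minus strand), chr17:27635225-27635274 (minus), chr2:39005112-39005161 (minus), chr7:4792935-4792984 (plus) and chr11:114668550-114668599 (plus), the first 3 from genes lower in DKO and the last 2 from genes that did not pass.
Rps6: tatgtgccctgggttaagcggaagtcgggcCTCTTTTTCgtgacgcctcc
Rps10: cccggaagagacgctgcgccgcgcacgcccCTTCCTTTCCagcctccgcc
Rpl35: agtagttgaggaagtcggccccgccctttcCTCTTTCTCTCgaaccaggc
Rpl28: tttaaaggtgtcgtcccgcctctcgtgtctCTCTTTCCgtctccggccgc
Rpl38: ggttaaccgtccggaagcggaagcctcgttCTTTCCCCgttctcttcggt

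The motif CCGGAAG holds the GGAA core that ETS-family transcription factors recognise. It was found on either strand in 26 of the 63 genes (41.3%) and in 9.93% of all genes in the table. It was in 15 of the 42 matched genes lower in DKO and in 10 of the 18 that did not pass. AAGATGGC, a core of YY1 sites, was in 6 of the 63 (9.52%) and in 3.19% of all. CACGTG, the E-box that Myc and related factors bind, was in 6 of the 63 (9.52%) and in 8.09% of all, and TATAAA was in 7 of the 63 (11.1%) and in 15.7% of all. AAGATGGC was in 3 of the 42 lower genes and 3 of the 18 that did not pass, CACGTG in 4 and 2, and TATAAA in 7 and 0. These 4 motifs were searched on both strands, and none holds another of them. For these and for the TOP shape, a gene was counted if any of its annotated starts held the motif. The 63 genes had 75 starts. The windows shown, with the motif in capitals, belong to genes whose levels are described next: Rpsa at chr9:120127556-120127605 (plus strand), Rps26 at chr10:128626693-128626742 (minus) and Rps6 at chr4:86857431-86857480 (minus) with CCGGAAG or its reverse complement, and Rpl22l1 at chr3:28805448-28805527 (plus) with TATAAA. In the Rpl22l1 window only the forward form is in capitals, although the reverse complement of TATAAA overlaps it.
Rpsa: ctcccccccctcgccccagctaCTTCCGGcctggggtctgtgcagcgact
Rps26: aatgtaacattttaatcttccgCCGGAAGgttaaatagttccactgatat
Rps6: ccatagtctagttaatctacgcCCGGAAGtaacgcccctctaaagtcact
Rpl22l1: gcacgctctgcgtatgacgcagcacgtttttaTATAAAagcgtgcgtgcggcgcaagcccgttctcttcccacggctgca

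Ribosomal protein genes shared a small difference between DKO and LKO, mostly in the same direction. Of the 81 that passed the filter on low counts, 56 were lower, 1 was higher (Rps4l) and 24 did not pass; 6.88% of all tested genes were lower and 7.42% higher. The log2 fold change was negative in 80 of the 81, with a median of -0.18 against 0.00 over all tested genes, which is a change of -11.9%. The falls were small and close to each other: those that passed lay between -7.89% and -28.1%, and the largest were those of Rpl22l1 and Rpsa (-23.4%). The middle of the distribution ran from -0.22 to -0.14, and the median standard error for a gene was 0.05. The SD of 0.11 between genes includes Rps4l, at 0.60 ± 0.15 far from the rest, and so overstates the spread of the others. The genes are abundant and abundance alone gives precision, so the same calls were read among 259 other genes with a mean of at least 200 FPKM, a comparison added after seeing the data. There 15.4% were lower, 19.7% higher and the median log2 fold change was -0.01, while of the 72 ribosomal protein genes at that level 51 were lower. The count of lower genes depended on single libraries: it was 32 without DKO 3, 37 without DKO 2 (medians of -0.16 in both cases) and 39 without LKO 2 (median -0.18). It was 37 with limma on log2(FPKM + 1), 23 after quantile normalization (median -0.13) and 11 with limma without a filter on low values. In bulk RNA, fewer cells of a type and less RNA per cell cannot be told apart, and every value here is relative to the other messages of the same library.

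**Figure D1:**
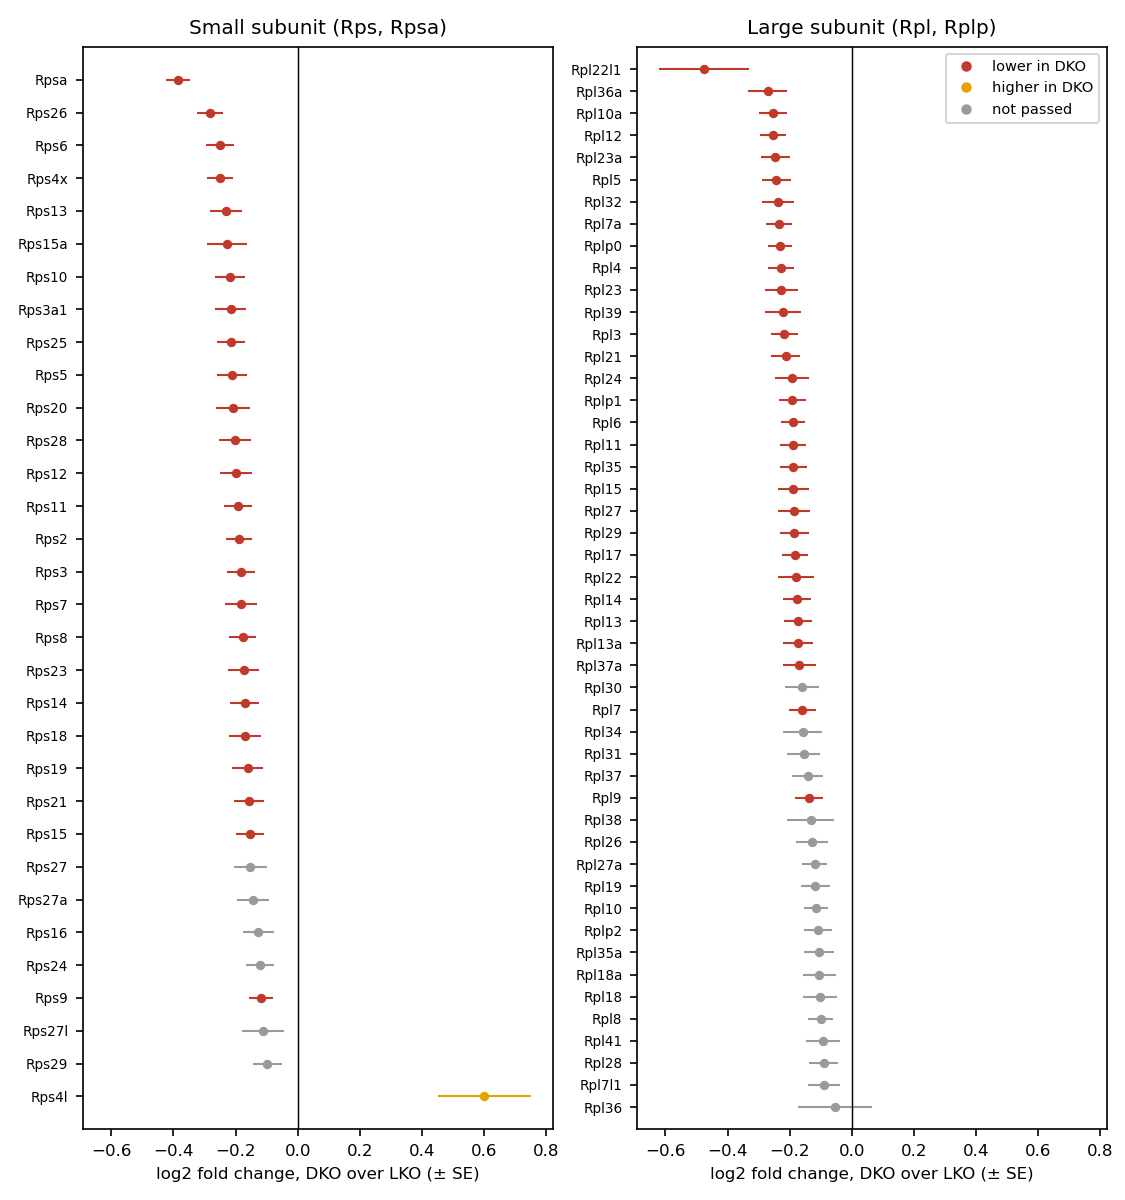
Log2 fold change, DKO over LKO, of the tested ribosomal protein genes reported here, from the edgeR fit (points, with standard errors as bars), small subunit in one panel and large subunit in the other; colour marks genes that passed at an adjusted p under 0.05. All lie left of 0 except Rps4l, and most are between -0.28 and -0.09, with Rpsa and Rpl22l1 furthest left.

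Summed over the genes, ribosomal proteins took 3.70%, 3.45% and 3.42% of the counts in DKO libraries 1 to 3, against 4.10%, 4.02% and 4.01% in LKO libraries 1 to 3. The groups did not overlap, and the DKO mean of 3.52% ± 0.154 was 0.872 of the LKO mean of 4.04% ± 0.0497 (SD, n = 3 each). On the per-length scale the genes took 10.1% ± 0.327 of all FPKM in DKO and 11.6% ± 0.140 in LKO. DKO 1 stood closest to the LKO libraries: it had the highest FPKM within DKO for 75 of the 81 tested genes, and the lowest was in DKO 3 for 49 and in DKO 2 for 29. Against the LKO mean of each gene, the median log2 difference was -0.09 in DKO 1, -0.22 in DKO 2 and -0.23 in DKO 3, against 0.02, 0.01 and -0.02 in LKO 1 to 3. Without DKO 1 the count of lower genes was 65 and the median log2 fold change -0.23. In FPKM, 64 of the 81 genes had all 3 DKO libraries below all 3 LKO libraries and 1 had them above, where 16.0% and 13.6% of all tested genes did; the other 16 overlapped.

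**Figure D2:**
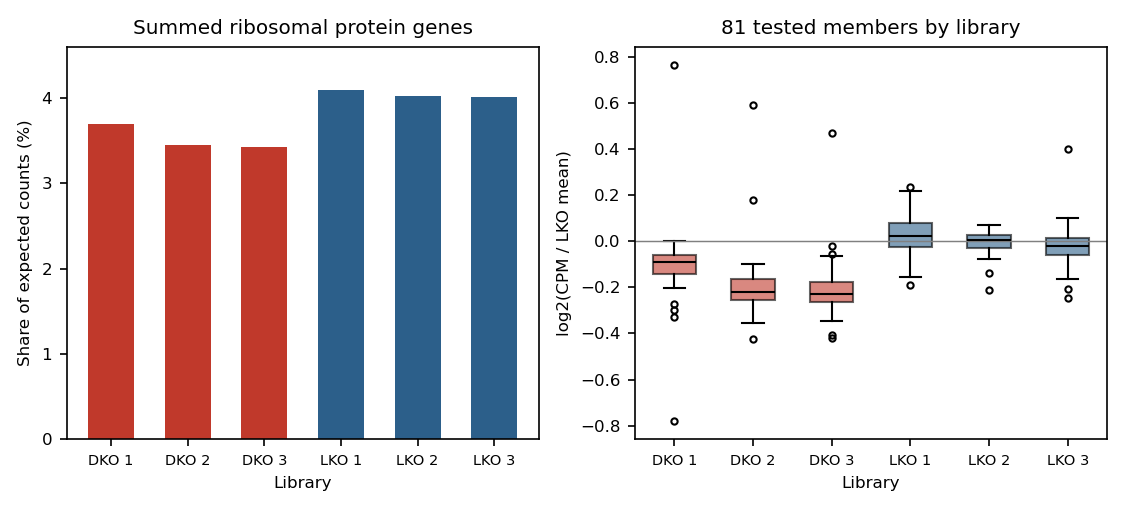
Share of each library's counts taken by the ribosomal protein genes (bars, percent) and, per library, the distribution over the 81 tested genes of the log2 difference in CPM from that gene's LKO mean (boxes from quartile to quartile with the median as a line, circles for genes beyond the whiskers), with DKO libraries left of LKO libraries. All 3 DKO bars are below all 3 LKO bars, and DKO 1, at 3.70%, is the DKO library nearest to LKO.

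The medians of both subunits were the same to the decimals given. Of 33 small subunit genes tested, 26 were lower, 1 was higher and 6 did not pass, with a median log2 fold change of -0.18. Of 48 large subunit genes, 30 were lower and 18 did not pass, with a median of -0.18. The ratio of summed small to summed large subunit FPKM was 0.749 ± 0.00562 in DKO and 0.757 ± 0.00234 in LKO (SD, n = 3 each). Its values were 0.755, 0.748 and 0.744 in DKO libraries 1 to 3 and 0.757, 0.760 and 0.755 in LKO libraries 1 to 3, and LKO 3 lay within the range of the DKO libraries.

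Among small subunit genes, Rpsa had the smallest p of all ribosomal protein genes. Rpsa, which is also known as a laminin receptor at the cell surface, had 512, 482 and 484 FPKM in DKO libraries 1 to 3, against 649, 641 and 654 FPKM in LKO libraries 1 to 3, and fell by 0.39 ± 0.04 on the log2 scale (edgeR adjusted p 2.79e-07), or -23.4%. The groups were well apart, and the LKO libraries lay within a narrow range. Rps26, which sits where the messenger RNA leaves the small subunit, had 1199.7, 1245 and 1199 FPKM in DKO and 1557, 1405 and 1501 FPKM in LKO, with a log2 fold change of -0.28 ± 0.04 (adjusted p 7.18e-05). Unlike most of the genes it was not highest within DKO in DKO 1. Its expected counts were fractional in all 6 libraries, and the same holds for Rplp0 and Rpl7a. Rps4x, the X-linked copy of ribosomal protein S4, had 928, 858 and 876 FPKM in DKO and 1104, 1065 and 1021 FPKM in LKO (log2 fold change -0.25 ± 0.04, adjusted p 0.000236). Rps6, the protein that S6 kinases phosphorylate, had 646, 609 and 606 FPKM in DKO and 796, 722 and 713 FPKM in LKO, with a log2 fold change of -0.25 ± 0.04. Both were separated between the groups in every library. Rps25, used by some viral internal ribosome entry sites, had 523, 489 and 479 FPKM in DKO and 596, 588 and 559 FPKM in LKO, a log2 fold change of -0.22 ± 0.05.

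The proteins of the ribosomal stalk, which recruits translation factors to the large subunit, were called lower, except Rplp2. Rplp0, the base of the stalk, had 1012, 949.5 and 954 FPKM in DKO libraries 1 to 3, against 1151, 1165 and 1132 FPKM in LKO libraries 1 to 3, a log2 fold change of -0.23 ± 0.04 (edgeR adjusted p 0.000193). Rpl12, which binds beside it, had 679, 643 and 623 FPKM in DKO and 793, 770.4 and 773 FPKM in LKO (-0.25 ± 0.04, adjusted p 0.000213). Both were lower in every DKO library than in any LKO library. Rplp1 was lower too, with 1279.7, 1193 and 1163 FPKM in DKO and 1443, 1348 and 1393 FPKM in LKO. Its partner Rplp2 had 564, 546 and 542 FPKM in DKO and 615, 566 and 614 FPKM in LKO, with a log2 fold change of -0.11 ± 0.05 that did not pass (adjusted p 0.132).

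Other large subunit genes gave falls of the same size. Rpl10a, of the stalk on the other side of the subunit, had 410.0, 378 and 372 FPKM in DKO and 469, 465 and 459 FPKM in LKO, a log2 fold change of -0.25 ± 0.05. Rpl7a had 805, 745 and 758 FPKM in DKO and 922, 919 and 895 FPKM in LKO (-0.23 ± 0.04). Neither gene overlapped between the groups. Rpl4, which lines the tunnel through which the new peptide leaves, had 659.9, 631 and 624 FPKM in DKO and 796, 736 and 728 FPKM in LKO (-0.23 ± 0.04), and Rpl23a, at the mouth of that tunnel, had 1114, 1012 and 985 FPKM in DKO and 1285, 1212 and 1222 FPKM in LKO (-0.25 ± 0.05). Rpl3, which reaches towards the peptidyl transferase centre, had 582, 566 and 561 FPKM in DKO and 709, 656 and 638 FPKM in LKO (-0.22 ± 0.04). In all of these DKO 1 was the highest DKO library and LKO 1 the highest LKO library. Rpl32 had 1023, 905 and 977 FPKM in DKO and 1228, 1148 and 1078 FPKM in LKO (-0.24 ± 0.05), and Rpl36a had 443, 388 and 404 FPKM in DKO and 559, 470.3 and 472 FPKM in LKO (-0.27 ± 0.06). Rpl36a in LKO 1 was well above the other LKO libraries, and neither gene overlapped between the groups.

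Rpl5 and Rpl11 form a complex with 5S ribosomal RNA on the way into the large subunit. Rpl5 had 301, 300.4 and 276 FPKM in DKO and 373, 340.0 and 334 FPKM in LKO, a log2 fold change of -0.24 ± 0.05 (edgeR adjusted p 0.000845). Rpl11 had 708, 719 and 717 FPKM in DKO and 861, 791 and 812 FPKM in LKO, with a log2 fold change of -0.19 ± 0.04 (adjusted p 0.0033). Both were lower without overlap.

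Of the lower genes, 10 passed in the main fit and in all 15 alternatives, among them Rpsa, Rps26, Rplp0, Rpl12, Rps4x, Rpl7a, Rpl10a, Rpl4 and Rpl6. Rpl6, of the large subunit, had 620.0, 608 and 619 FPKM in DKO and 732, 697 and 694 FPKM in LKO, a log2 fold change of -0.19 ± 0.04. The groups did not overlap. Rpl6 and Rplp0 lie on chromosome 5 with Aldh2, with 6 and 38 tested genes between them and it, and Rpl5, Rpl21 and Rpl9 lie on it too, with 128, 247 and 260 tested genes between. For these 5 genes an effect of ALDH2 loss and of strain variants linked to the knocked-out allele cannot be told apart. The tested genes lie on 19 chromosomes, at most 14 of them on the same chromosome.

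Levels per length spanned a wide range. The 5 highest by mean FPKM were Rpl41, Rps26, Rplp1, Rpl10 and Rps15. Rpl41, a very short basic peptide, had 1569, 1455 and 1434 FPKM in DKO and 1433, 1648 and 1712 FPKM in LKO; the groups overlapped, and its log2 fold change of -0.09 ± 0.05 did not pass. Rpl10, which joins the large subunit late in assembly, had 1204, 1132 and 1148 FPKM in DKO and 1276, 1275 and 1250.2 FPKM in LKO, without overlap but with a log2 fold change of -0.11 ± 0.04 that missed the threshold (edgeR adjusted p 0.0546). Rps15 had 1186, 1103 and 1053 FPKM in DKO and 1227, 1245 and 1273 FPKM in LKO and was lower (-0.15 ± 0.04), a call lost without DKO 2, DKO 3, LKO 2 or LKO 3 (adjusted p between 0.0686 and 0.156). Each of these 5 overlapped its neighbour in the order over the 6 libraries. The lowest apart from gene copies were Rps15a, with 20.8, 21.8 and 18.7 FPKM in DKO and 26.6, 22.7 and 23.1 FPKM in LKO, and Rpl22, the L22 protein needed in lymphoid development, with 74.5, 67.6 and 66.2 FPKM in DKO and 86.6, 75.9 and 75.4 FPKM in LKO. Their listed transcript lengths, 5158 bases for Rps15a and 2203 for Rpl22, are long for this family, and FPKM divides by that length, so these low levels depend on the annotated transcript. Both genes were lower in DKO, Rps15a with a log2 fold change of -0.23 ± 0.06 and Rpl22 with -0.18 ± 0.06. Neither call held in every fit that left out a library: Rps15a was lost without DKO 3 (adjusted p 0.118) or LKO 1 (0.0886), and Rpl22 without DKO 2 (0.151), DKO 3 (0.16) or LKO 1 (0.175).

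**Figure D3:**
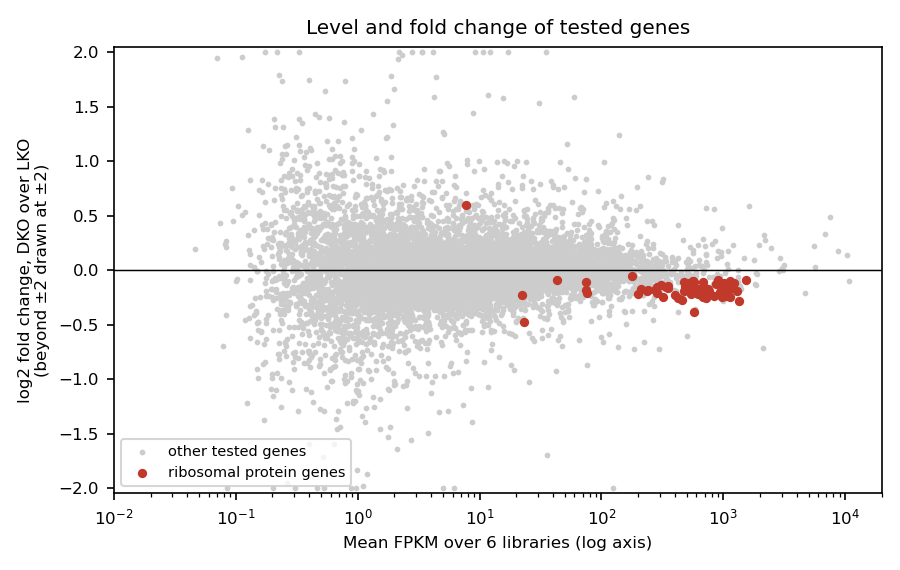
Mean FPKM over the 6 libraries (horizontal, log axis) against the log2 fold change DKO over LKO (vertical) of the 81 tested ribosomal protein genes (coloured) and the other tested genes (grey), one point a gene, with values beyond 2 in either direction drawn at that limit. The coloured points form a flat band around -0.18 at all levels, with Rpl22l1 below it and Rps4l above 0 among the lowest genes.

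Across the 77 genes left after the copies with a suffix l or l1 were set aside, the log2 fold change had a Spearman correlation of 0.04 with the log2 mean FPKM and of -0.26 with the log2 transcript length. These are descriptions across genes that share the same 6 libraries. The 26 shortest, of 328 to 573 bases, had 15 lower genes and a median of -0.17. The 26 longest, of 864 to 5158 bases, had 22 lower genes and a median of -0.20, while the 25 between had 18 and -0.17. In 17 of the tested genes the expected count was fractional (further than 0.005 from a whole number) in at least 4 libraries, which is where reads were divided among genes; 12 of them were lower. Of the other 64, 44 were lower with a median of -0.18, a comparison chosen after seeing the data.

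Of the 24 genes that did not pass, 15 had an unadjusted p under 0.05, and all had a negative log2 fold change. Rpl36, of the large subunit, was the least certain: it had 145, 199.7 and 173 FPKM in DKO and 156, 152 and 234 FPKM in LKO, with a 95% interval of the log2 fold change from -0.29 to 0.18. Its point estimate of -0.05 was positive without DKO 1 (0.06) or without LKO 3 (0.17). Rps23, at the decoding site, was the single gene that was called lower although its libraries overlapped: it had 1065, 977 and 948 FPKM in DKO and 1208, 1134 and 1057 FPKM in LKO. Its call was lost without DKO 2, DKO 3, LKO 1 or LKO 2 (edgeR adjusted p between 0.0656 and 0.121). Rpl36 and Rps23 were picked after their values were seen.

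Several ribosomal proteins have a second gene copy, and the copies did not all move with their partners. Rps4l, a copy of Rps4x that the annotation lists as a transcribed pseudogene on chromosome 6, had 10.4, 9.24 and 8.44 FPKM in DKO libraries 1 to 3, against 7.26, 6.02 and 5.35 FPKM in LKO libraries 1 to 3. It was the only ribosomal protein gene that rose, with a log2 fold change of 0.60 ± 0.15 (edgeR adjusted p 0.00827) and between 53 and 105 counts a library. The call was lost without DKO 1 (adjusted p 0.0587) or without LKO 3 (0.0519), with DESeq2 and with limma without a filter. It passed in 11 of 15 alternatives. Rpl22l1, a copy of Rpl22, had the largest fall in the fit to all libraries, with 15.4, 22.5 and 19.8 FPKM in DKO and 30.8, 27.4 and 22.5 FPKM in LKO (-0.48 ± 0.15, adjusted p 0.0302). DKO 2 and LKO 3 came within rounding of each other, and the gene had between 76 and 151 counts a library. Its call was lost without DKO 1 (0.182), DKO 3 (0.0533), LKO 1 (0.138) or LKO 2 (0.0709), and with DESeq2 and all 4 limma fits, so that it passed in 6 of 15 alternatives. With a library left out its log2 fold change lay between -0.60 and -0.34, and that of Rpsa between -0.41 and -0.37, so its rank as the largest fall is not fixed. Rps27l, a p53 target, had 76.2, 71.8 and 66.9 FPKM in DKO and 82.0, 75.0 and 76.8 FPKM in LKO and did not pass, and neither did Rpl7l1, with 41.6, 40.2 and 42.2 FPKM in DKO and 46.3, 42.6 and 44.1 FPKM in LKO. The other 3 copies were too low to test: Rpl39l, best known from testis, had 1 to 5 counts a library, Rpl3l, of heart and skeletal muscle, 0 to 3, and Rpl10l, of testis, 0 to 1.

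The share of a pair's FPKM held by the copy was compared in 5 pairs, where 3 libraries against 3 cannot give a p below 0.1. Rps4l held 1.04% ± 0.0786 of the Rps4l and Rps4x sum in DKO and 0.579% ± 0.0676 in LKO (SD, n = 3 each; exact two-sided permutation p 0.1, adjusted over the 5 pairs 0.25), with all DKO libraries above all LKO libraries. Rpl36al, which lies outside the symbol rule, held 35.7% ± 0.326 of its sum with Rpl36a in DKO and 31.8% ± 1.08 in LKO (exact permutation p 0.1, adjusted 0.25), also without overlap. Its own level was 247, 212 and 227 FPKM in DKO and 251, 232 and 215 FPKM in LKO, with a log2 fold change of -0.01 whose 95% interval ran from -0.14 to 0.11; Rpl36a fell, as given above. Rpl22l1 held 21.7% ± 4.06 of its pair in DKO and 25.3% ± 1.97 in LKO, Rpl7l1 5.90% ± 0.238 in DKO and 5.63% ± 0.0986 in LKO, and Rps27l 6.08% ± 0.505 in DKO and 5.90% ± 0.274 in LKO. These 3 overlapped between the groups (exact permutation p 0.2, 0.2 and 0.8). Both genes of the Rps4l, Rpl36al and Rps27l pairs had whole expected counts in all 6 libraries, while Rpl22l1 had fractional ones in 3 libraries and Rpl7l1 in 6. Near-identical copies can share reads, and how the authors' counting assigned them is not given in the sources used here.

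**Figure D4:**
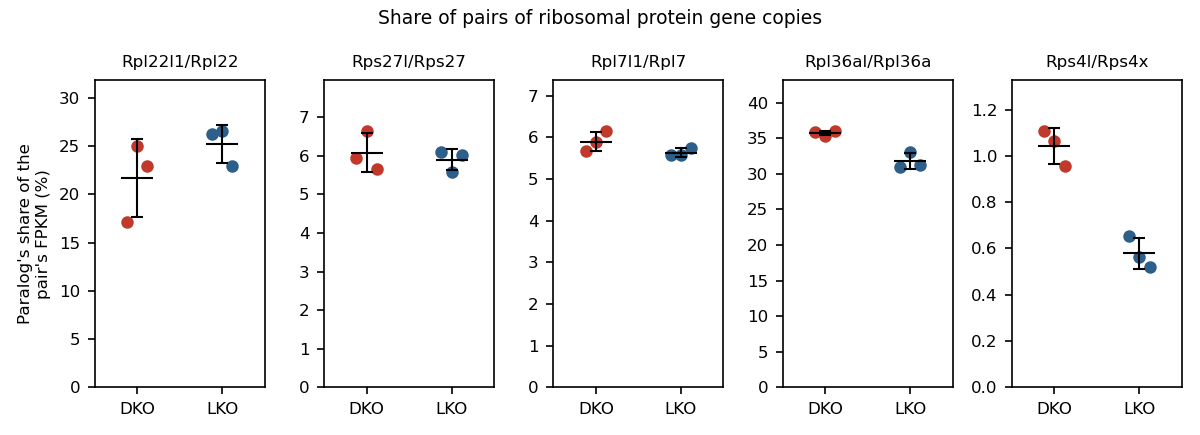
Share (percent) of the summed FPKM of each pair of ribosomal protein gene copies held by the second copy, one point a library with the group mean and SD as a line and bars, DKO left of LKO. The Rps4l and Rpl36al shares are higher in every DKO library than in any LKO library, and the other 3 pairs overlap.

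Of 4 ribosomal protein genes outside the symbol rule, 1 was lower and 3 did not pass, where 6.88% of all tested genes were lower. Rack1, a signalling scaffold on the small subunit, had 725, 695 and 694 FPKM in DKO and 795, 788 and 797 FPKM in LKO and was lower (-0.16 ± 0.04). Fau, which encodes a ribosomal protein behind a ubiquitin-like part, had a log2 fold change of -0.12 ± 0.04 and did not pass. Among 7 tested genes whose symbols mark them as ribosomal protein pseudogenes or retrogenes, 6 had a negative log2 fold change and the median was -0.01. Only 1 was lower, Rps15a-ps4 (-0.32 ± 0.10). Its call was lost without DKO 2, DKO 3 or LKO 1 (edgeR adjusted p between 0.127 and 0.238). Rpl31-ps12 (-0.19 ± 0.07) and Rpl14-ps1 (-0.23 ± 0.12) did not pass. Their expected counts were fractional in 6 libraries, and those of Rps15a-ps4 in 5.

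Genes of the same regulon and of the translation apparatus were described from lists chosen for what they do. Across all tested genes, 6.88% were lower and 7.42% higher in DKO. Of 30 other TOP messages, 15 were lower, 15 did not pass and the median log2 fold change was -0.18, the same as for the ribosomal proteins. Npm1, a nucleolar histone and ribosome chaperone, had 218, 228 and 212 FPKM in DKO and 299, 264 and 255 FPKM in LKO (-0.31 ± 0.05), and Naca, which guards the emerging peptide, had 238, 240.0 and 222 FPKM in DKO and 314, 267 and 279 FPKM in LKO (-0.29 ± 0.05). Of 8 genes on the list of elongation factors, 5 were lower (Eef1a1, Eef2, Eef1g, Eif5a and Eef1b2) and 1 higher, with a median of -0.19. Eef1a1, which brings aminoacyl-tRNA, had 4330.0, 4213 and 4273 FPKM in DKO and 5349, 4847 and 4762 FPKM in LKO (-0.21 ± 0.04). Eef2, which drives translocation, had 893, 891 and 908 FPKM in DKO and 1018, 1030.2 and 1019 FPKM in LKO (-0.18 ± 0.03). The gene on this list that rose was Eef2k, which is not an elongation factor but the kinase that inhibits Eef2. It had 6.47, 6.48 and 6.99 FPKM in DKO and 5.65, 5.72 and 5.90 FPKM in LKO (0.22 ± 0.06). The call was lost without DKO 3, LKO 1 or LKO 2 (edgeR adjusted p between 0.0562 and 0.15). Of 36 initiation factors, 8 were lower, among them Eif4g2, Eif4b, Eif4a1 and the poly(A)-binding protein gene Pabpc1, 28 did not pass and the median was -0.09. These lists share members: Pabpc1, Eef1a1, Eef2 and Eif4b are also among the TOP messages.

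Of 73 ribosome assembly factors, 11 were lower, where 6.88% of all tested genes were, 62 did not pass, and the median log2 fold change was -0.09. The count was 5 without DKO 3, 7 without DKO 1 and 7 without LKO 2. Mdn1, the ATPase that strips factors from the pre-ribosome, had 2.42, 2.73 and 2.75 FPKM in DKO and 3.43, 3.18 and 3.23 FPKM in LKO (-0.31 ± 0.06; not passed in the 4 limma fits), and the nucleolar helicase gene Ddx21 had 26.8, 28.5 and 26.2 FPKM in DKO and 35.3, 31.4 and 31.2 FPKM in LKO (-0.25 ± 0.05). Of 14 genes of RNA polymerase I and its factors, 0 passed with edgeR, DESeq2 or limma, 0 had an unadjusted p under 0.05 in edgeR and the median was -0.07. Of 13 small nucleolar RNA host genes 2 were lower: Snhg6 had 11.3, 10.7 and 9.70 FPKM in DKO and 18.0, 21.5 and 16.0 FPKM in LKO (-0.80 ± 0.17), and Gas5 overlapped between the groups and lost its call without DKO 3, LKO 1 or LKO 3 (edgeR adjusted p between 0.0986 and 0.154). The mitochondrial ribosome is built from other proteins: of its 78 genes 3 were lower (Mrpl3, Mrpl19 and Mrpl15), 75 did not pass and the median was -0.03. Mrpl3 was lower at 43.7, 38.5 and 39.5 FPKM in DKO and 57.6, 52.5 and 58.4 FPKM in LKO (-0.46 ± 0.06). The calls of Mrpl19 (without DKO 1, DKO 2, DKO 3, LKO 1 or LKO 3) and Mrpl15 (without DKO 2, DKO 3, LKO 2 or LKO 3) were lost at adjusted p between 0.0531 and 0.215.

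Of 22 tested genes on the list of mTORC1, S6 kinase and TOP regulators, 20 did not pass and the median log2 fold change was -0.01. For this and the next lists, the shares across all tested genes were 6.88% lower and 7.42% higher. Myc, a transcription factor that drives ribosome production, was lower, with 9.05, 9.74 and 8.86 FPKM in DKO and 13.7, 12.6 and 13.2 FPKM in LKO (-0.50 ± 0.07, edgeR adjusted p 5.18e-05). Mxd4, which competes with Myc for its partner Max, had 52.1, 46.1 and 48.0 FPKM in DKO and 40.3, 45.1 and 41.8 FPKM in LKO (0.21 ± 0.07), a call lost without DKO 1, DKO 3, LKO 1 or LKO 3 (adjusted p between 0.0717 and 0.179). Of 8 tested genes named Rps6k, the ribosomal S6 kinase family, Rps6ka4 was lower, with 34.0, 33.5 and 32.5 FPKM in DKO and 35.9, 37.8 and 39.5 FPKM in LKO (-0.17 ± 0.05, adjusted p 0.0313), a call lost without DKO 1, DKO 2, DKO 3, LKO 2 or LKO 3 (adjusted p between 0.0561 and 0.132) and passed in 4 of 15 alternatives. Of 16 genes of ribosome quality control, 3 were lower (Ltn1, Abce1 and Gspt1) and 1 was higher. The higher gene was Gcn1, a sensor of stalled and collided ribosomes. It had 24.8, 25.0 and 26.0 FPKM in DKO and 12.5, 13.6 and 13.2 FPKM in LKO (0.96 ± 0.05). Both Gcn1 and Mxd4 lie on chromosome 5 with Aldh2. For them an effect of ALDH2 loss and of strain variants linked to the knocked-out allele cannot be told apart. Ltn1, which tags stalled peptides for breakdown, passed in each fit that left out a library. Abce1, which splits ribosomes after termination, lost its call without DKO 1, DKO 3 or LKO 1 (adjusted p between 0.0749 and 0.118), and the termination factor gene Gspt1 without DKO 1, DKO 2, DKO 3, LKO 2 or LKO 3 (between 0.0654 and 0.107). Of 12 genes listed as chaperones or p53 links, Sqstm1 was higher. It had 198, 194 and 188 FPKM in DKO and 160.1, 174 and 164 FPKM in LKO. Sqstm1 encodes the autophagy receptor p62 and is not a ribosomal protein chaperone, although the list holds it. Mdm4, the partner of Mdm2 in holding down p53, was lower, a call lost without DKO 1, DKO 2, DKO 3, LKO 1 or LKO 3 (adjusted p between 0.0595 and 0.165). Over all lists of translation, ribosome assembly and their regulation together, 36 of 205 tested genes were lower and 4 higher, Sqstm1 among the 4. The median was -0.09. The mitochondrial proteins, the genes with pseudogene or retrogene symbols and the separate list of Rps6k genes were left out. Genes named Rps6k entered only where the list of regulators held them, so Rps6ka4 was not counted. Each gene was counted once.

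**Figure D5:**
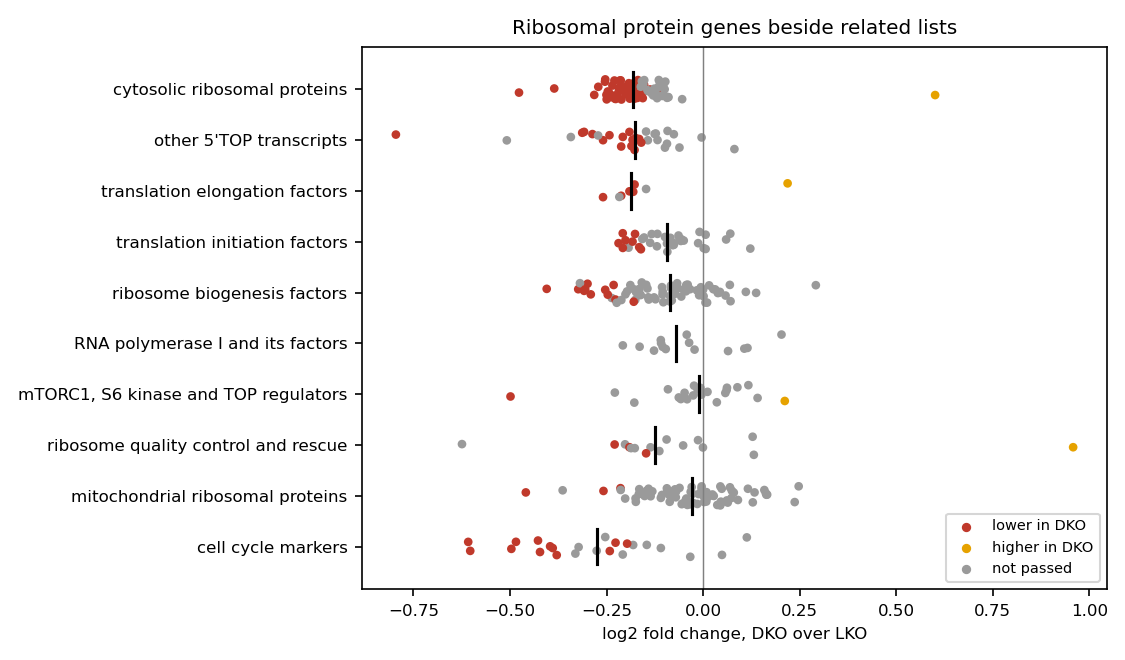
Log2 fold change, DKO over LKO, of every tested gene (points) and the median (line) in the ribosomal protein genes and in lists of related genes. The ribosomal protein genes, the other TOP messages and the list of elongation factors have medians of -0.18, -0.18 and -0.19, and the mitochondrial ribosomal proteins -0.03.

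Markers of dividing cells and of other marrow cells also differed between the groups, and their part in the fall of the ribosomal protein genes was not tested. Across all tested genes, 6.88% were lower and 7.42% higher in DKO. Of 23 cell cycle genes 12 were lower and 11 did not pass, with a median log2 fold change of -0.28 and summed levels of 561 to 583 CPM (counts scaled to library size) in DKO and 680 to 694 CPM in LKO; without DKO 3 the count was 7. Of 7 tested lymphocyte markers 5 were lower (120 to 134 CPM in DKO and 157 to 173 CPM in LKO; 3 without DKO 3), and Trac, Ighm, Vpreb1 and Igll1 were listed at 0 or in no library. Of 16 neutrophil markers 9 were lower (6 without DKO 2 or LKO 2) and Mmp9 was higher, with a median log2 fold change of -0.52. Their summed levels overlapped, at 700 to 776 CPM in DKO and 767 to 796 CPM in LKO. That sum holds Mmp9, which had mean counts of 2723 in DKO and 1506 in LKO. Of 16 stromal markers 10 were higher and 6 did not pass (387 to 510 CPM in DKO and 236 to 270 CPM in LKO). Of 10 macrophage markers 5 were higher (Mertk, Fcgr1, Csf1r, Lyz2 and Msr1) and Adgre1 was lower (20163 to 21781 CPM in DKO and 18942 to 19989 CPM in LKO). The direction of Lyz2 turned after quantile normalization, to -0.045, and the call of Adgre1 was lost without DKO 2 (edgeR adjusted p 0.0536) or DKO 3 (0.0968). Of 9 erythroid markers 1 could be tested and did not pass (2.19 to 2.82 CPM in DKO and 2.49 to 3.20 CPM in LKO), with the globin genes Hba-a2, Hbb-bs and Hbb-bt among those at 0 or in no library.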

How the data were processed

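RNA was sequenced from 3 DKO and 3 LKO libraries, grouped by their titles. Per the file headers, the deposited files hold for each gene an expected count, a transcript length and an FPKM value. The authors' expected counts estimate how many reads each gene gave, without scaling to depth; reads that match several genes can be divided. FPKM values were scaled by the authors to transcript length and library size, per the file headers. The submitters' processing notes name mm8 as build and Bowtie 0.12.2. The counting tool is not given in the sources used here and neither is the strand setting, so antisense genes that overlap cannot be separated. Where a file lacked a gene, its value there was set to 0.

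Of 16871 gene numbers, 16832 were matched to a symbol through RefSeq's table for GRCm38. The members and the gene lists were chosen with earlier results of these data known, so counts over them are descriptions and carry no test of the list. Expected counts were rounded and tested in R 4.3.3 with the quasi-likelihood test of edgeR 4.0.16 (filterByExpr, TMM, no block) over 11809 genes, with Benjamini-Hochberg adjustment and a threshold of 0.05. Standard errors come from the fold change and its F statistic. Means ± SD are over the 3 libraries of a group, of count shares, FPKM shares, subunit ratios or pair shares as stated. The biological coefficient of variation was 0.0413. Pair shares were tested by exact permutation in scipy 1.17.1. On simulated counts the fit was checked for recovery of known changes.

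Genes named are members that passed, up to 15 a direction by smallest p, up to 5 a direction by largest fold without overlap, the 5 highest and lowest by FPKM, the copies and partners of 8 pairs, members removed by the filter, Aldh2, and up to 4 genes of smallest p of each related list. Others are said to have been picked after their values were seen, or are described as members of the same complex. Alternatives were DESeq2 1.42.0, other scalings, no count filter, a replicate block, limma 3.58.1 on log2(FPKM + 1) or log2(FPKM + 0.1), whose fold changes understate low genes, and each library left out in turn. Some genes that the rule takes enter the counts but have no values reported here.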

Additional observations from a re-analysis of the deposited data

How the results depend on the processing

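The median log2 fold change of the ribosomal protein genes stayed negative in all 15 alternatives, from -0.23 without DKO 1 to -0.13 after quantile normalization, and at least 79 of the 81 tested genes were negative in each. The number of genes called lower, 56, was less stable: it was 37 with limma on log2(FPKM + 1) and on log2(FPKM + 0.1), 11 with limma without a filter and 23 after quantile normalization, and lay between 32 and 65 when a library was left out; the cause was not tested. Leaving out DKO 3 gave 32, DKO 2 gave 37 and LKO 2 gave 39, while leaving out LKO 1 gave 57 and DKO 1 gave 65. The single gene called higher was 0 with DESeq2 and with limma without a filter, and between 0 and 1 without a library (0 without DKO 1 or LKO 3). Over all genes 1689 were called, against 1119 with limma on log2(FPKM + 0.1), 807 with limma without a filter and 1108 after quantile normalization. In the related lists, 36 lower genes became 10 with limma without a filter, and 4 higher genes became 2 there and with DESeq2, and between 2 and 4 without a library.

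The share of Rps27l in its pair turned to -0.10 percentage points, DKO minus LKO, without DKO 2, with a range to 0.39. Genes that did not pass turned as well: the log2 fold change of Rpl36al lay between -0.072 and 0.045 with a library left out (positive without DKO 2 or LKO 1), and that of Rpl36 between -0.17 and 0.17 (0.06 without DKO 1, 0.17 without LKO 3). The log2 fold change of Lyz2 was -0.045 after quantile normalization. With a replicate block, 57 ribosomal protein genes were lower and 1 was higher, and 743 genes were lower and 810 higher over all. Deviations of same-numbered libraries had correlations of -0.09, -0.19 and -0.16 over 8327 genes. These values alone do not settle whether same-numbered libraries were prepared together. Rps4l and Rpl22l1 had between 53 and 151 counts a library and standard errors of 0.15, against a median of 0.05 over the ribosomal protein genes.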
